A study of Mus musculus with 189 samples.

Results

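The cells described here are 91 single cells from the progenitor gate of a study of late mast cell differentiation, arranged by how much of their RNA codes for 4 mast cell granule proteins. The gate is that of basophil-mast cell progenitors (BMCPs), a peritoneal population that was taken from 4 female C57BL/6 mice. Its cells were alive, lacked lineage markers, carried c-Kit and FcεRI, showed integrin β7 at a high level and scattered little light to the side. The comparison cells are 94 mature mast cells from the same mice, with the same c-Kit and FcεRI phenotype but with low integrin β7 and strong side scatter. No cell of either gate carried a treatment or an engineered allele in the labels, and ages are not given in the sources used here. Of 189 cells in all, 95 were BMCPs, and 91 of these had at least 100000 reads on mouse genes and Cpa3 at 1000 counts scaled to a fixed library total (CPM) or more. The labels do not tie cells to mice, so each gate is 1 pooled sample. For this reason all values below describe cells, and none is a test between animals.

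Mast cells store their mediators in granules, in which proteases, histamine and serotonin are held on serglycin, a proteoglycan carrying heparin chains. In rodents, connective tissue mast cells, among them those of the peritoneal cavity, are known for the chymases Cma1 and Mcpt4, the tryptase Tpsb2 and the carboxypeptidase Cpa3. Basophils share the IgE receptor with mast cells and in mice are known for the protease Mcpt8.

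The order was the percent of a cell's endogenous reads that fell on Cma1, Mcpt4, Tpsb2 and Cpa3 together, called the granule share here. These 4 genes set the order, so their rise along it is part of the rule and not a finding. Just outside the read threshold were BMCP 93 with 36972 reads and BMCP 6 with 3978, and the shallowest cell inside it, BMCP 61, had 344022. Just outside the Cpa3 threshold were BMCP 80 with 160.4 CPM and BMCP 46 with 112.7 CPM, and just inside it were BMCP 40 with 3729 CPM and BMCP 55 with 11033 CPM. The granule share ran from 2.09% to 32.6% of reads, with quartiles at 8.79%, 16.3% and 21.5%. Cells were spread without a wide break, the largest gap between neighbours being 1.74 percentage points, from 21.7% to 23.4%. For description the order was divided into a low end of 30 cells (up to 10.5%), a middle of 31 cells (12.1% to 19.7%) and a high end of 30 cells (19.8% and above), and into 7 bins of 13 cells.

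The promoters of 3 order genes and of 2 proteases that were lower along the order are shown, since all but Cpa3 lie in a single cluster on chromosome 14 and the group moved in both directions along the order. Each line is the 250 bases before the annotated start, 5′ to 3′ on the gene's strand, from RefSeq on GRCm38.p6, and capitals mark matches to GATAA on either strand, a core bound by GATA factors. The regions are chr14:55944676-55944925, chr14:56062311-56062560, chr3:20242182-20242431, chr14:56262335-56262584 and chr14:56085198-56085447, all on the minus strand.
Cma1: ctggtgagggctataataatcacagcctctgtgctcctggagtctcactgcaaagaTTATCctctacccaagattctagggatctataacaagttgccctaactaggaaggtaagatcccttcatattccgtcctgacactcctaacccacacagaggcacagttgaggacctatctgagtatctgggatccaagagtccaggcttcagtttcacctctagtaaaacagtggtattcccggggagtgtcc
Mcpt4: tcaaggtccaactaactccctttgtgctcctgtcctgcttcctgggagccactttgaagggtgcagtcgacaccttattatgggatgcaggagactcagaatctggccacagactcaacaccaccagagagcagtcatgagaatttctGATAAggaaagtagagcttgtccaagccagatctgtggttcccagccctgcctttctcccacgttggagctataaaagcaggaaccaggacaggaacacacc
Cpa3: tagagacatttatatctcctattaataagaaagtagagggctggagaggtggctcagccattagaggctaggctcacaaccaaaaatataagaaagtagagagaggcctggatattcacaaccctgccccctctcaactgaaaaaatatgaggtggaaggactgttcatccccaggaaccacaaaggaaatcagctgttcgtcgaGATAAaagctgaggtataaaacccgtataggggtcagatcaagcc
Gzmb: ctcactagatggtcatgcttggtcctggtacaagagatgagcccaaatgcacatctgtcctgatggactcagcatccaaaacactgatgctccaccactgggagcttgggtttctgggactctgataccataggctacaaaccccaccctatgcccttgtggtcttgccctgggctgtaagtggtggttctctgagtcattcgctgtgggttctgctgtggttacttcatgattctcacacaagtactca
Mcpt8: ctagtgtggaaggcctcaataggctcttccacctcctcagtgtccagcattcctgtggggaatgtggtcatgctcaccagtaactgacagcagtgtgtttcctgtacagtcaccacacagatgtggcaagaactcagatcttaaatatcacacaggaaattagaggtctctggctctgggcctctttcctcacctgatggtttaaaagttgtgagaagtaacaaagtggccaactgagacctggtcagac
The Cma1, Mcpt4 and Cpa3 windows each held 1 match to GATAA, and the Gzmb and Mcpt8 windows held none. The motif occurred in 23.1% of 27025 promoters of that length and in 14.5% of the 3832 with a gene that passed the expression filter. It occurred in 15.7% of 51 matched genes that were higher along the order and in 5% of 20 that were lower. The share among the higher genes is close to that of all expressed genes, and a match is a string of letters, not a shown site.

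The 4 order genes did not enter at the same point. Cpa3, the carboxypeptidase, was already the main granule transcript at the low end, with a median of 3.64% of reads in the first bin and 8.56% in the seventh. Cma1, a chymase, went from a median of 0.806% to 10.8%. The tryptase Tpsb2 stood at 0.0141% and 0.0159% in bins 1 and 2, reached 2.81% in bin 3 and ended at 9.38%. Mcpt4, a chymase of mature connective tissue mast cells, was between 0.0025% and 0.0027% through bin 4, was at 0.029% in bin 5 and reached 1.27% and 2.68% in bins 6 and 7. Of the reads on all 4 genes, Cpa3 therefore took 69.2% in the first bin and 27.97% in the last, and Mcpt4 0.0585% and 7.34%. Each gene also followed the other 3 across cells. Spearman's rho of a gene with the summed share of the other 3 was 0.83 for Cma1, 0.74 for Tpsb2, 0.74 for Cpa3 and 0.63 for Mcpt4 (91 cells, which share the read total as denominator). In mature mast cells the same values were 0.10, 0.29, 0.23 and -0.01 (94 cells).

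**Figure D1:**
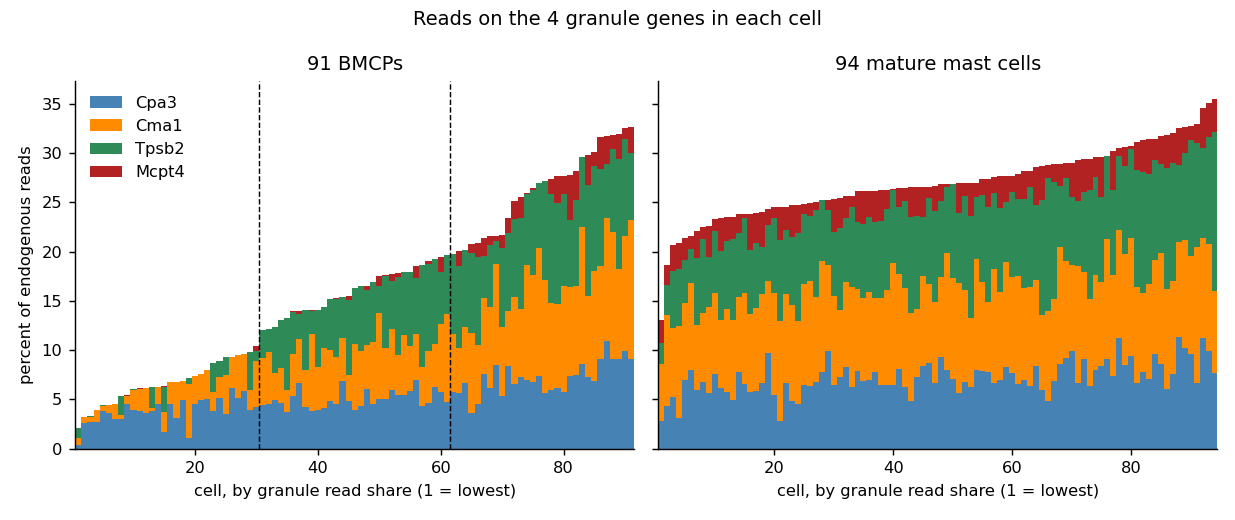
Percent of endogenous reads on Cpa3, Cma1, Tpsb2 and Mcpt4 (stacked bars, y axis) in each of 91 BMCPs and 94 mature mast cells, each gate ordered by the sum (x axis); dashed lines separate the low end, middle and high end. Tpsb2 enters in bulk near the first line and Mcpt4 mostly after the second, and the highest BMCPs (up to 32.6%) stand as high as most mature cells (median 26.7%).

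Mature mast cells ranged from 13.05% to 35.5%, with quartiles at 24.7%, 26.7% and 29.2%. Of the 91 BMCPs, 58 were at or above the lowest mature cell, 20 at or above the mature first quartile and 16 at or above the mature median. Conversely, 1 mature cell lay below the BMCP median. The 2 gates thus overlapped in granule share although they were sorted as separate populations.

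Several qualities of the libraries varied along the order too. The rho with granule share was 0.28 for endogenous reads, 0.28 for reads per ERCC spike-in read, -0.32 for the percent of reads on mitochondrial genes and 0.05 for genes detected at an equal depth of 100000 reads. Reads that aligned outside annotated genes, per 100 endogenous reads off the 4 order genes, had medians of 33.7 at the low end, 27.5 in the middle, 25.6 at the high end and 23.7 in mature cells (rho -0.47 in BMCPs and 0.04 in mature cells). BMCP 40 and BMCP 55, both at the low end, stood apart with 97.4 and 24.7 endogenous reads per ERCC read, against a median of 567.3, and with 1145 and 1024 genes at equal depth, against 2478. No molecular identifiers were used, so reads are not single molecules. Read totals of the 91 cells ran from 344022 to 2091665. Without BMCP 40 and BMCP 55, 67 of the 72 genes described next as higher and all 31 described as lower were called again. With rho taken as a partial rho given the reads outside annotated genes, 48 of the 72 and 19 of the 31 were called again, and given total reads and genes detected, 67 and 28.

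All other genes were measured as CPM of the reads that remained without the 4 order genes, so that their rise did not lower the rest by arithmetic. A gene was called higher along the order with a Spearman rho of at least 0.4 across the 91 cells and a log2 ratio of mean CPM + 1, high end over low end, of at least 1. It was called lower with both at most the negative of these values. By this rule of size, 72 of 5223 genes were higher (1.38%) and 31 were lower (0.594%). Counts of called genes in the lists below are to be set against these shares, and a single call says nothing about a list. The median rho over all 5223 genes was 0.02, with 5% of genes below -0.22 and 5% above 0.27. Scaling to all endogenous reads moved the median log2 ratio of all genes from -0.07 to -0.40, and 58 of the 72 higher and all 31 lower genes were called again among 58 and 47. With median-ratio size factors the log2 ratios of Ctsd, Gpr141b, Tpsg1 and Fcer1a, called higher below, turned negative, and without BMCP 40 and BMCP 55 none of these 4 did. Leaving out the 1 end cell that moved it most shifted the ratio by over 1.5 times for 34 of the 72 higher genes. For the lower genes this was so for 14 of 31. All 103 ratios stayed past the threshold, but that cell was often one whose removal enlarged the ratio, which could undo no call. Without the cell that had most reads of the gene, 94 of the 103 genes were called again. Protein-coding genes made up 68 of the higher and 28 of the lower genes. In a principal component analysis without the 4 order genes, the first component held 5.56% of the variance and its rho with the granule share was 0.74 in absolute value. The Pearson r of a cell's profile over 5550 genes with the mean mature profile had medians of 0.420 at the low end, 0.461 in the middle and 0.526 at the high end, again without the order genes.

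**Figure D2:**
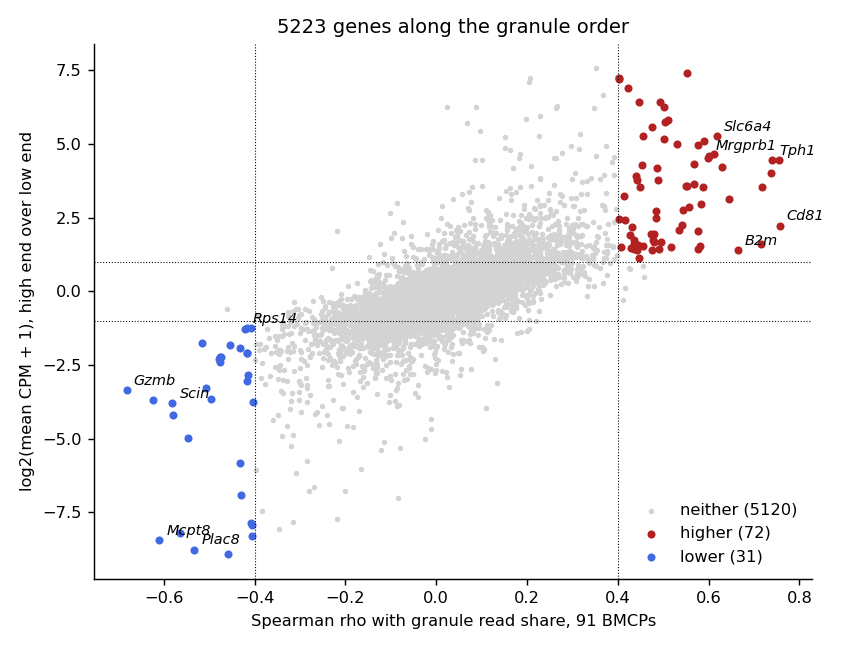
Each of 5223 genes by its Spearman rho with granule share over 91 BMCPs (x axis) and the log2 ratio of mean CPM + 1, high end over low end (y axis); dotted lines mark the thresholds. The 72 higher genes (red) reach a rho of 0.76 for Cd81, and the 31 lower genes (blue) reach -0.68 for Gzmb.

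The columns of the count table fell into a pair of unbroken runs, BMCP 1 to 48 and BMCP 49 to 95, whose meaning is not given in the sources used here. Within each run, of 46 and 45 kept cells, the rho of Gzmb was -0.72 and -0.70, that of Mcpt8 -0.62 and -0.62, that of Tph1 0.77 and 0.75 and that of B2m 0.53 and 0.82. The first run had 117 higher and 58 lower genes and the other had 128 and 73, of which 56 and 65 of the 72 higher and 17 and 27 of the 31 lower genes were shared with the whole group.

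Of the 6 genes taken as markers of the gate, 5 were lower along the order, and as they were picked from earlier work on the same cells this count is no independent evidence. The cytotoxic protease gene Gzmb (chr14:56258838-56262260, minus strand) had the lowest rho of all genes, while the log2 ratio of several others, Mcpt8 among them, was lower. At the low end it ran from 1.14 to 23057 CPM with a median of 9266, in the middle from 2.48 to 24530 with a median of 4423, and at the high end from 0.825 to 8566 with a median of 7.90. Most cells either carried it well above 1000 CPM or lay at the few CPM seen in mature cells, where the highest value was 20.1 CPM. The number of cells at 100 CPM or more per bin was 12, 13, 10, 12, 11, 2 and 0 of 13, a drop that came late and abruptly. Its rho was -0.68 and its log2 ratio -3.36.

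Mcpt8, the basophil protease (chr14:56082166-56085273, minus strand), left the order sooner. It had a median of 8168 CPM at the low end (3.11 to 39236), 6.82 in the middle (0.697 to 8563) and 6.31 at the high end (0 to 571), with a rho of -0.61 and a log2 ratio of -8.44, which became -9.57 without BMCP 27, the high-end cell with the most of it. Cells at 100 CPM or more numbered 12, 11, 6, 4, 4, 2 and 0 along the bins. The low end and the high end overlapped only at or below 571 CPM, and 26 of 30 low-end cells had it at 100 CPM or more. In mature cells 6 of 94 reached 100 CPM, up to 1039.

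Scin, which codes for the actin-severing protein scinderin, had a median of 1102 CPM at the low end (0 to 2941), 344 in the middle (0 to 8034) and 0 at the high end (0 to 1362), with a rho of -0.58. Lag3, an inhibitory receptor best known from T cells, had medians of 914 (0 to 4681), 591 (0 to 4407) and 0.865 (0 to 2516) CPM, with a rho of -0.50. In the middle, 16 of 31 cells had Scin and 17 had Lag3 at 100 CPM or more, and at the high end 4 and 1 of 30 cells did. Itga4, the integrin α4 chain that pairs with integrin β7, had medians of 220 (0 to 2193), 35.5 (0 to 1234) and 0 (0 to 241) CPM, with a rho of -0.55. In mature cells Scin did not exceed 3.95 CPM, and Lag3 reached 100 CPM in 1 cell and Itga4 in 2.

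Cd34, a surface sialomucin of blood progenitors, was the exception among the markers of the gate and was not called. Its medians were 545 CPM (0 to 2829) at the low end, 2.01 (0 to 1835) in the middle and 2.77 (0 to 1350) at the high end, with 20 of 30, 15 of 31 and 13 of 30 cells at 100 CPM or more. Its rho was -0.14 and its log2 ratio -1.01, and 40 of 94 mature cells had it. Picked from earlier work on the same cells, the 6 markers of the gate cannot serve as an independent check of its label. At the low end all 6 had a median above 100 CPM. BMCP 40, the first cell of the order, had only Itga4 of them at that level (854 CPM). At the high end 5 of the 6 stood in at most 6 of 30 cells. The cells are therefore called here by their place in the order and not by a stage.

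**Figure D3:**
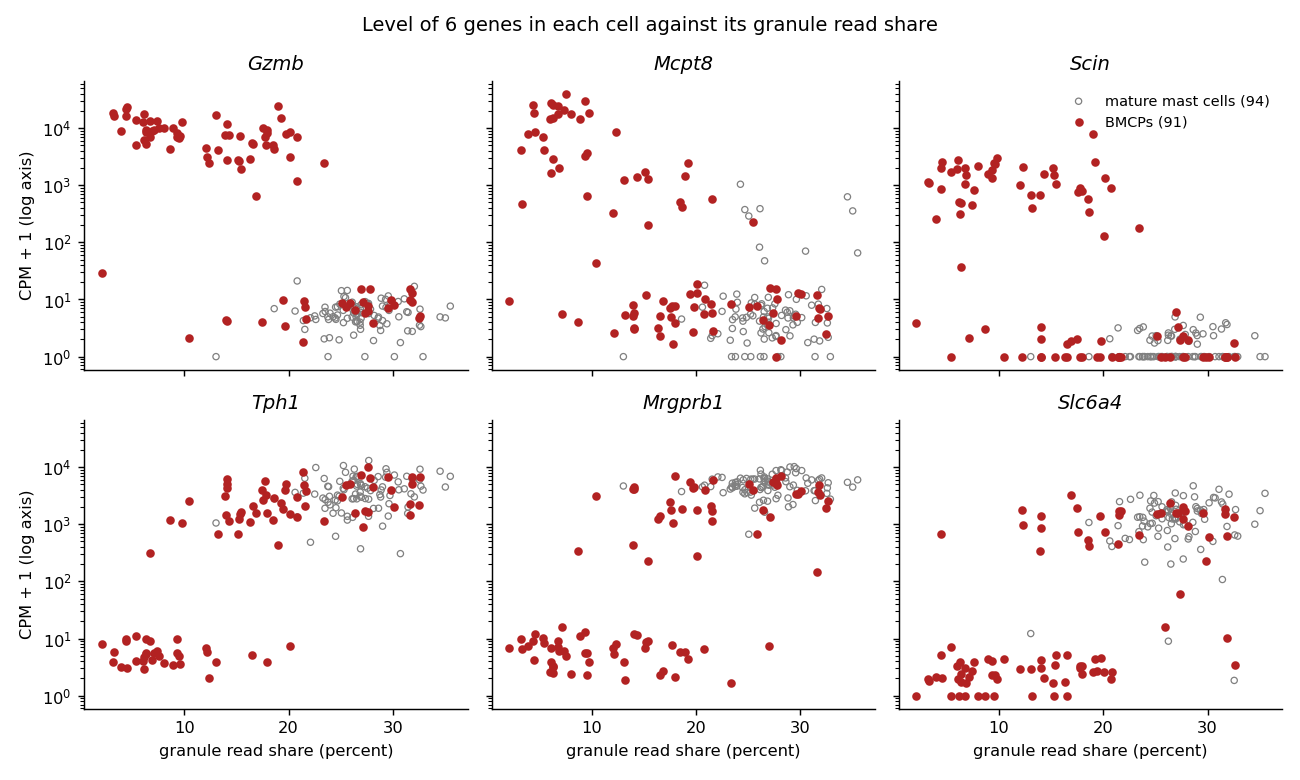
Level of Gzmb, Mcpt8, Scin, Tph1, Mrgprb1 and Slc6a4 (CPM + 1, log axis) against granule share (percent) in 91 BMCPs (filled) and 94 mature mast cells (open). Most cells lie either above 100 CPM or at a few CPM, and Gzmb changes between these states later than Mcpt8.

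Other lower genes left the order at different points. Plac8, expressed widely in myeloid progenitors, had medians of 236 CPM (0 to 3479), 0 (0 to 385) and 0 (0 to 2.35), with cells at 100 CPM or more falling as 12, 6, 3, 0, 1, 0 and 0 over the bins. The chemokine Ccl9 was at 100 CPM or more in 8, 5 and 1 cells of the first 3 bins and in none of the later ones, which for 13 cells allows a share of up to 23.1% by counting alone. Nkg7, a granule membrane protein of cytotoxic lymphocytes, had medians of 1765 (0 to 5988), 2.05 (0 to 3970) and 1.73 (0 to 1754) CPM, with a rho of -0.58. The chemokine Ccl4 reached 100 CPM in 14 low-end cells and 8 middle cells, and at the high end did not exceed 2.35 CPM. Its fall was not steady, with 9, 4, 2, 2, 5, 0 and 0 such cells over the bins. Between the lowest and highest 45 cells its log2 ratio was -0.58, short of the threshold. The chemokine receptor Ccr1 reached 100 CPM in 14, 4 and 2 cells. Atp8b4, a phospholipid flippase, reached it in 14, 4 and 0 cells, and Angpt1, the ligand of the receptor Tie2, in 18, 9 and 2. Igfbp4, which binds insulin-like growth factors, reached it in 13 low-end cells and in none of the others, whose highest value was 1.65 CPM. Ivns1abp, a kelch-domain protein, was among the strongest falls by rank (rho -0.62, medians 1087, 390 and 1.08 CPM), but 28 of 94 mature cells had it at 100 CPM or more. Arhgap45, a GTPase-activating protein, was lowered rather than lost, with medians of 868, 853 and 298 CPM.

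Markers of other cells that could share this gate were looked at as whole lists. Of 13 natural killer and cytotoxic genes, 4 passed the filter. Of those, 3 were lower (Nkg7, Gzmb and Lag3), beside 0.594% of all genes, and Gzmb and Lag3 were markers of the gate. All 3 were also known as higher in BMCPs from earlier work on the same cells, so this count is no independent evidence. Ncr1, Klrb1c, Klrd1, Klrk1 and Eomes were at 0 reads in every BMCP. Summed over the list, which also holds the proteoglycan gene Srgn, the medians were 17025 CPM at the low end (49.9 to 34518), 12192 in the middle (4096 to 38036) and 7210 at the high end (4449 to 21279). Of 7 basophil genes, 5 passed and 1, Mcpt8, was lower. Only 2 of the 5 had a positive rho, Prss34 (0.24) and Cd200r3 (0.35), and the list's median rho was -0.15. The basophil protease gene Prss34 had 4, 12 and 10 cells at 100 CPM or more in the low end, middle and high end. Cd200r3, a receptor of basophils and mast cells, had 11, 17 and 25. No gene of the list besides Mcpt8 was called, and Cebpa was at 0. The summed basophil list had medians of 11639, 1559 and 1232 CPM (6.86 to 40411 at the low end, 13.3 to 18051 at the high end). Of 9 macrophage genes only Apoe passed, a lipid carrier also read in every mature cell, and it was called higher, with a rho of 0.58 and medians of 1739 CPM at the low end, 5016 in the middle, 5464 at the high end and 7464 in mature cells. Of the same list, 6 (Adgre1, C1qa, C1qb, Csf1r, Fcgr1 and Lyz2) were at 0. Of 9 B cell genes 3 passed and none was called, with Ighm, the heavy chain of IgM, at 100 CPM or more in 5, 5 and 11 cells and in 44 of 94 mature cells. No T cell, eosinophil, neutrophil or erythroid gene passed the filter, and Cd3d, Cd3e, Cd3g, S100a8 and S100a9 were at 0. Single cells still held such reads. The summed B cell list reached 8015 CPM at the low end and the summed T cell list 1881 CPM in the middle. In mature cells these sums reached 1980 and 2665 CPM.

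Of the genes for granule contents and the amines stored with them, some rose along the order and others were not called. Tph1, the enzyme that starts serotonin synthesis (chr7:46644641-46672537, minus strand), had a median of 4.54 CPM at the low end (1.97 to 2525), 1561 in the middle (1.02 to 6184) and 3378 at the high end (6.27 to 9869). Its rho was 0.74 and its log2 ratio 4.45, which became 5.35 without BMCP 77, the low-end cell with the most of it. Cells at 100 CPM or more numbered 0, 2, 7, 12, 11, 13 and 13 along the bins. Hdc, which makes histamine, had medians of 8.04 (0.803 to 2165), 740 (1.07 to 3268) and 2621 CPM (2.35 to 6991), with a rho of 0.64, and both enzymes passed from a minority to a majority of cells in bin 3. Slc6a4, the serotonin transporter, came later, with medians of 1.11 (0 to 677), 2.46 (0 to 3275) and 1063 CPM (0.931 to 2386) and a majority of cells from bin 6. Slc18a2, the vesicular transporter that loads amines into granules, did not follow them, with medians of 850, 892 and 1133 CPM and a rho of 0.13. Maob, which breaks down amines, was higher, with 2, 11 and 22 cells at 100 CPM or more.

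Of 15 granule protease and storage genes outside the rule, 11 passed the filter. Of those, 5 were higher and none was lower, beside 1.38% and 0.594% of all genes. The 5 were the amine-synthesis enzymes Tph1 and Hdc, the tryptases Tpsab1 and Tpsg1, and Mrgprb1, a surface receptor that the list also held. The median rho of the 11 genes was 0.46 and their median log2 ratio 1.39, against 0.02 and -0.07 over all genes. With median-ratio size factors the list's median log2 ratio turned to -2.51, and without BMCP 40 and BMCP 55, whose factors were 0.0103 and 0.0102 of the median, it was 1.28. Srgn, the serglycin core protein, had a rho of 0.46 but was abundant throughout, with medians of 4360, 5170 and 6565 CPM, and was not called. None of 9 genes of heparin and serglycin synthesis that passed, Srgn among them, was called. At 1.38% of all genes higher and 0.594% lower, nothing can be read from a count of 0 in so short a list. The sulfotransferase Ndst2 had medians of 823, 1625 and 1890 CPM.

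Genes of the tryptase cluster on chromosome 17 rose in turn. The cluster spans 31.2 kb (chr17:25343245-25374442) and holds Tpsab1, Tpsb2 and Tpsg1. Tpsg1, a transmembrane tryptase, had medians of 4.20 (0 to 8989), 2398 (490 to 7025) and 2452 CPM (1076 to 9262), with 3, 5, 11 and then 13 cells per bin at 100 CPM or more, and so changed beside Tpsb2. Its log2 ratio between the lowest and highest 45 cells was 0.90, under the threshold. Tpsab1, a further tryptase, had medians of 1.17 (0 to 4577), 5.08 (1.09 to 5980) and 1605 CPM (3.25 to 12720), with 0, 0, 3, 1, 3, 9 and 11 cells, and so changed beside Mcpt4. Its log2 ratio of 3.53 became 9.18 without BMCP 77, the single low-end cell that had it. In mature cells 74 of 94 had Tpsab1 at 100 CPM or more and all 94 had Tpsg1.

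The protease cluster on chromosome 14 held genes that moved in opposite directions within 321 kb (chr14:55941451-56262260, 15 protein-coding genes). In the order of the chromosome, Cma1 and Mcpt4 rose by the rule, Mcpt8 fell, Ctsg was not called and Gzmb fell. Ctsg, cathepsin G, lies next to Mcpt8 and had medians of 4.87 CPM at the low end, 879 in the middle, 345 at the high end and 3.95 in mature cells, with 12 of 30, 20 of 31, 18 of 30 and 43 of 94 cells at 100 CPM or more. Its rho was 0.17, and its mean was 1710 CPM in the middle and 1730 at the high end. Among the others only Cma2, a chymase, reached 100 CPM in more than 4 cells (22 of 91), and Gzmc, Gzmd, Gzme, Gzmf, Gzmg and Gzmn, granzymes between Ctsg and Gzmb, stayed at or under 9.09 CPM. Mcpt1 and Mcpt9, close relatives of Mcpt4, did not exceed 20.0 and 31.4 CPM, and reads shared with Mcpt4 cannot be told apart from their own. This cluster and the other gene clusters given here were picked with their values in view.

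The Mas-related receptors, through which basic peptides and drugs activate mast cells, differed among themselves. Mrgprb1 had medians of 5.66 (1.32 to 3162), 10.7 (0.856 to 7085) and 3323 CPM (0.669 to 6987), with 0, 1, 4, 6, 8, 11 and 13 cells at 100 CPM or more and a rho of 0.60. Mrgprb2, the receptor through which such compounds degranulate mouse mast cells, was highest in the middle by median and mean, with medians of 6.47 (0.648 to 4835), 3987 (66.2 to 6804) and 1471 CPM (334 to 6419), and of 1888 in mature cells. Its rho of 0.35 left it uncalled. Mrgprx2, as the annotation names it, had medians of 0.983, 532 and 361 CPM with a rho of 0.61, and Mrgpra4 medians of 0, 0 and 69.6 CPM with a rho of 0.51. The 4 lie in 577 kb on chromosome 7 (chr7:47980837-48558086), where Mrgprb4, Mrgprb5, Mrgprb8 and Mrgprx1 did not exceed 54.4 CPM. Members of this family resemble each other, and how reads shared between them were counted is not given in the sources used here.

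**Figure D4:**
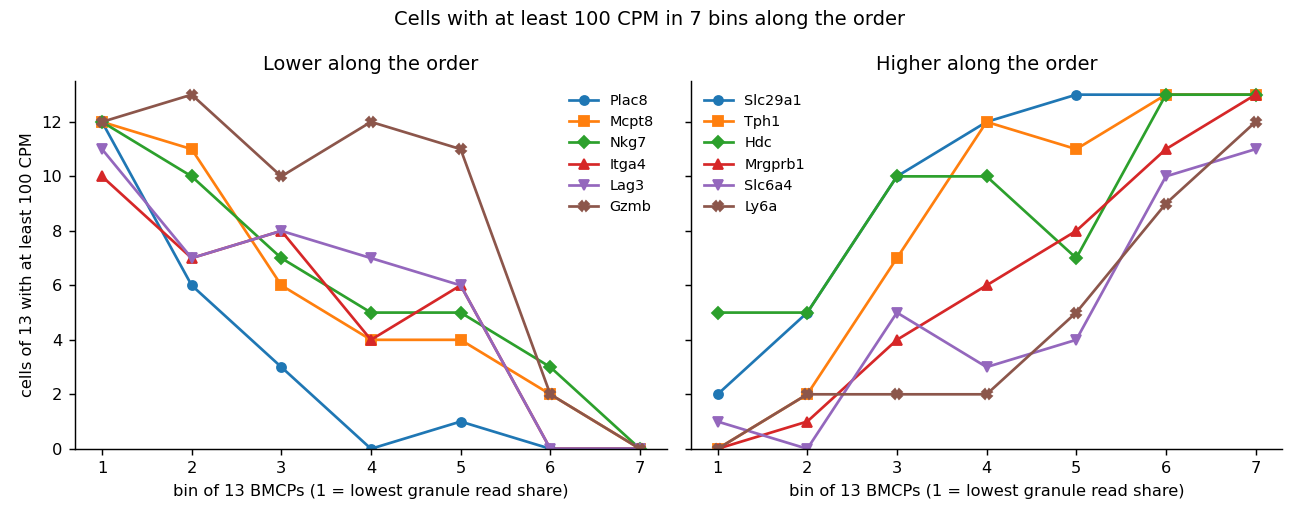
Number of cells with at least 100 CPM (y axis) in 7 bins of 13 BMCPs along the order (x axis), for 6 genes called lower and 6 called higher. Plac8 and Mcpt8 leave the majority of cells in bins 2 and 3 and Gzmb in bin 6, while Slc29a1, Tph1 and Hdc pass to a majority in bin 3 and Slc6a4 and Ly6a in bin 6.

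Among the other genes called higher, the tetraspanin Cd81 had the highest rho of all (0.76), with medians of 713 CPM (0 to 2414), 2087 (1.02 to 3722) and 2818 (623 to 8289). It was already present in 5 and 10 cells of the first and second bins. Slc29a1, a nucleoside transporter, had medians of 5.75 (0.981 to 880), 1298 (0.726 to 4318) and 2553 CPM (178 to 7177), also with a rho of 0.76. Pla2g7, which degrades platelet-activating factor, had medians of 2.58, 553 and 2163 CPM and a rho of 0.74. Gpr141b, an orphan receptor, had medians of 2.07, 822 and 1472 CPM and a rho of 0.63. Among receptors and signalling genes, the endothelin receptor Ednra was at 100 CPM or more in 3, 15 and 24 cells, the regulator of G protein signalling Rgs13 in 1, 6 and 21, and the kinase Sgk1 in 0, 9 and 21. The complement regulator Cd55 was so in 6, 18 and 23 cells, the myelin protein Pmp22 in 1, 8 and 25, the matrix protein Ecm1 in 4, 9 and 24 and the adhesion molecule Cadm1 in 1, 6 and 22. Without BMCP 91, a low-end cell, the log2 ratio of Ednra moved from 2.08 to 3.31.

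Ly6a, known as the stem cell antigen Sca-1 and used as a marker of blood stem cells, rose rather than fell. Its medians were 1.69 CPM (0 to 611), 2.41 (0 to 4007) and 924 (0 to 3388), with 0, 2, 2, 2, 5, 9 and 12 cells per bin at 100 CPM or more, and its rho was 0.59. In mature cells its median was 1695 CPM and 86 of 94 cells reached 100 CPM. It was the 1 gene of 5 stem and progenitor genes passing the filter that was called, and none was lower. The list is too short to be set against the 1.38% and 0.594% of all genes.

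Class I antigen presentation genes rose in part. B2m, the light chain shared by class I molecules, had medians of 3286 CPM (20.6 to 6682), 5296 (2658 to 11128) and 9227 (2315 to 18111), with a rho of 0.66. The heavy chain H2-D1 had medians of 3837, 5287 and 9786 CPM (rho 0.58) and H2-K1 of 880, 1042 and 3182 CPM (rho 0.49), and all 3 stayed at 100 CPM or more in at least 25 of 30 low-end cells. Calr, a chaperone in their assembly, was the fourth of 12 passing genes called, and none was lower, beside 1.38% higher and 0.594% lower among all genes. The call of H2-K1 was lost with a partial rho given the reads outside genes (0.36) and that of Calr in the first run of columns (0.34). With the lowest 45 cells set against the highest 45, the log2 ratios of B2m, H2-D1 and H2-K1 were 0.83, 0.88 and 0.95, under the threshold. Among 28 genes of protein folding and secretion in the endoplasmic reticulum Calr was also the 1 gene called, from which nothing can be read at these shares. The peptide transporter Tap1 (rho 0.03) and the immunoproteasome subunits Psmb8 (-0.21) and Psmb9 (-0.03) were not called. The lysosomal list, of which 26 genes passed, had 2 higher and none lower, again beside 1.38% and 0.594% of all genes. The protease Ctsd was higher, with medians of 2308 CPM (17.3 to 7343), 4136 (1540 to 15268) and 7180 (1582 to 15022). Cd63, a granule membrane protein used to follow degranulation, was level at 2223, 2405 and 2317 CPM.

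Of the receptors by which the gate was sorted, Kit and Itgb7 were not called. Kit had medians of 1076, 1455 and 1063 CPM (rho -0.06) and Itgb7, the transcript of the integrin used to separate the gates, 1173, 1708 and 1687 CPM (rho 0.08), beside 1496 in mature cells. Fcer1a, the IgE-binding chain of FcεRI, was the only 1 called of 17 passing genes in the list of mast cell receptors. At 1.38% of all genes higher and 0.594% lower, nothing can be read from a single call in this list. Fcer1a had medians of 2058 (5.16 to 7951), 3321 (13.1 to 12261) and 4122 CPM (9.02 to 12297), a rho of 0.45 and a log2 ratio of 1.11 just past the threshold. Its rho was under the threshold at 0.33 given the reads outside genes, 0.33 with all endogenous reads and 0.35 with ERCC reads in the denominator, and its log2 ratio was 0.70 between the lowest and highest 45 cells. Its partner chains Fcer1g (rho 0.34, log2 ratio 0.41) and Ms4a2 (rho 0.21, log2 ratio 0.41) were not called. The list's median log2 ratio was 0.36 and turned to -1.33 with median-ratio size factors. Of 6 integrin genes that passed, Itga4 was lower and none was higher.

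None of the 19 transcription factors of blood lineages that passed was called, beside 1.38% of all genes higher and 0.594% lower. At these shares nothing can be read from a count of 0 in so short a list, nor in those given next. Their median rho was -0.05. Gata2, a factor that mast cells and basophils depend on, had medians of 1033, 1957 and 1267 CPM (rho 0.02). The rho was -0.05 for Gata1, 0.03 for Spi1, 0.19 for Mitf and -0.26 for Runx1. Meis2, a homeobox factor outside that list, was higher, with 0, 5 and 12 cells at 100 CPM or more and 53 of 94 in mature cells. No gene of the 7 of S phase, the 2 of G2/M phase, the 10 immediate early genes, the 13 of granule exocytosis or the 12 encoded by mitochondria was called. Of 24 actin and Arp2/3 genes Capg was higher and Scin lower, both of the gelsolin family of actin-binding proteins, with medians of 4.15, 814 and 1107 CPM for Capg. The rho of Capg was 0.36 as a partial rho given the reads outside genes, 0.37 in the second run of columns and 0.38 with all endogenous reads in the denominator, all short of the threshold. Of 56 ribosomal protein genes 3 were lower (Rps14, Rps18 and Rps24) and none was higher, with a list median rho of -0.14 and a log2 ratio of -0.62. None of these 3 kept a rho of at most -0.4 in both runs of columns (Rps14 -0.32 and Rps24 -0.32 in the first, Rps18 -0.30 in the other), and at an equal depth of 100000 reads Rps18 was at -0.34 and Rps24 at -0.38. With ERCC reads in the denominator none of the 3 reached it. Pseudogene copies make the reads of single ribosomal genes uncertain.

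**Figure D5:**
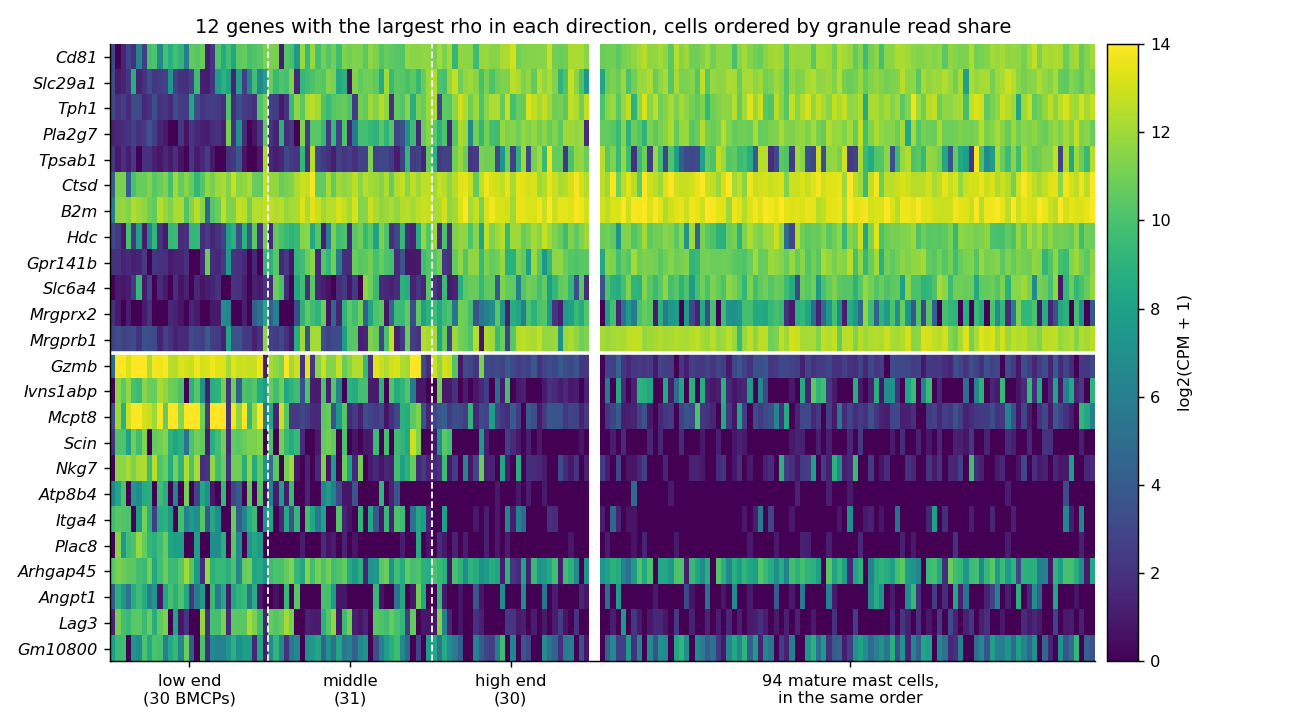
Level, as log2(CPM + 1) (colour), of the 12 genes with the largest rho in each direction (rows) in 91 BMCPs and 94 mature mast cells, each gate ordered by granule share from left to right (columns). The upper 12 genes fill in at different points between the low end and the high end, and the lower 12, led by Gzmb at a rho of -0.68, empty towards the high end.

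The place at which a called gene changed hands was read from the bins. A rising gene was placed in the first bin in which at least 7 of 13 cells had it at 100 CPM or more. By this measure 15 of the 72 higher genes were placed in bin 3, among them Tph1, Hdc, Slc29a1, Tpsg1 and Cd55, and 16 in bin 6, among them Slc6a4, Tpsab1, Ly6a, Pmp22, Ecm1, Rgs13 and Kcnq1. Bins 4 and 5 took 8 and 5 genes, bin 7 took 4, bins 1 and 2 took 10 and 2, and 12 genes reached no such majority. Of the lower genes, 8 had their last majority in bin 1, among them Plac8, Ccl9, Ccl4 and Ccr1. Mcpt8 had it in bin 2, Itga4 and Nkg7 in bin 3, Lag3 in bin 4 and Gzmb and Scin in bin 5. These courses were not all steady: Scin had 11, 10, 8, 5, 9, 1 and 0 cells, and so no majority in bin 4. Lag3 had 11, 7, 8, 7, 6, 0 and 0, and Mcpt8 had 6 in bin 3, so 1 cell would move their place. Tph1 and Cd55 likewise had just 7 cells in bin 3. The sequence of genes is thus a description, and its counting error was not estimated.

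Genes called lower and genes called higher along the order were carried by the same cells in part. Of the 91 cells, 28 had both Gzmb and Tph1 at 100 CPM or more, 32 had Gzmb without Tph1, 30 had Tph1 without Gzmb, and 1, BMCP 40, had neither. The 28 with both lay at ranks 16 to 71 of the order with a median of 48.5, between the cells with Gzmb alone (median rank 18.5) and those with Tph1 alone (76.5). Since Gzmb fell and Tph1 rose along this same order, such a middle rank follows from their courses and is no separate evidence. Gzmb at that level and Mcpt4 at 1000 CPM or more met in 10 cells, at ranks 45 to 71, while 50 cells had Gzmb alone and 24 Mcpt4 alone. Mcpt8 was nearly nested in Gzmb: 37 cells had both, 23 Gzmb alone at a median rank of 49, and 2 Mcpt8 alone. Mcpt8 and Mrgprb1 shared 4 cells, with 35 and 39 cells having 1 of them. Across the 91 cells the rho of Gzmb was 0.69 with Scin, 0.62 with Nkg7, 0.57 with Mcpt8 and -0.63 with Tph1. These values share the read total of each library, and all of these genes were called along the order, so their signs are not independent of it.

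The mature mast cells, which the rule did not use, give the same genes at a fixed stage. Their levels are set beside the high end only as values, since the high end was itself chosen by granule share. Medians at the high end and in mature cells were 3378 and 3628 CPM for Tph1, 2553 and 3048 for Slc29a1, 1063 and 1322 for Slc6a4, 9227 and 10625 for B2m, and 7180 and 7529 for Ctsd. Mrgprb1 stood at 3323 and 4854 CPM and Ly6a at 924 and 1695. For some genes the share of cells was lower at the high end than in mature cells. Wfdc1, a secreted protease inhibitor-like protein, was at 100 CPM or more in 0 of 30, 1 of 31 and 11 of 30 cells along the order and in 52 of 94 mature cells. Kalrn, a guanine nucleotide exchange factor, was so in 1, 3 and 8 cells and in 51 mature cells. The rho of Wfdc1, 0.40 over all 91 cells, was 0.33 in the second run of columns and 0.39 without BMCP 40 and BMCP 55, short of the threshold. The count of 0 of 30 allows a share of up to 10% by counting error alone. Krt4, a keratin, had 16 of 30 at the high end and 38 of 94 in mature cells. Whether the shares of these 3 genes differ between the high end and mature cells was not tested.

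With the mature cells ordered by their own granule share, 9 of the 72 higher genes had a rho of at least 0.2 within mature cells, beside 1.47% of all genes, and 2 had one of at most -0.2, beside 4.31%, and their median was 0.06. Those with the highest values there included Ly6a (0.32), Gcsam (0.28), Pla2g7 (0.27), Capg (0.27) and Tph1 (0.24), whereas Tpsg1 was at -0.22. Of the 31 lower genes, 1 was on either side and the median was 0.02, most of them being near 0 reads in these cells.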

How the data were processed

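The authors deposited raw counts of reads, without normalization, for every gene in every cell, and per the submitters' processing notes the tools were GSNAP 2015-09-29 and HTSeq 0.5.3p3 with genome build mm10. The annotation release and the use of strand in counting are not given in the sources used here, so members of gene families and overlapping genes are uncertain. Single cells went into 2 plates with 96 wells each, and poly(A) RNA was amplified with 23 PCR cycles beside ERCC spike-ins, per the labels' protocols. A single lane of 50 bp single-end reads was sequenced, without molecular identifiers. Intervals and floors (3 counts) cover counting error only.

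Symbols matched 97.97% of 46078 identifiers, and coordinates came from GENCODE M21 (GRCm38, the assembly of mm10). Rows of spike-ins and unassigned reads were left out of totals. CPM over endogenous reads without the 4 order genes, Spearman's rho and log2(mean CPM + 1) ratios were computed for genes with a mean of 5 CPM and a read in 25% of cells. Calling by size was tested on simulated data with smooth trends along the order. These lack the split of cells into high and near-absent levels seen for many genes here, so that pattern is not covered. No significance test between groups was made, since cells are not replicates. Doublets were not called, each well being sorted for 1 cell. Named genes were the 6 gate markers, the 12 with the largest rho in each direction, and of each list the called members and the 3 most abundant, and others named were chosen after their values were seen. A few named genes are not reported here. The members, lists and thresholds were chosen with earlier results of these data known. Alternatives covered scaling, depth, the order genes, ends, filters and cells. Python 3.11.15, numpy 2.4.6, pandas 2.3.3, scipy 1.17.1 and matplotlib 3.10.9 were used.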

Additional observations from a re-analysis of the deposited data

How the results depend on the processing

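The 72 higher and 31 lower genes became 58 and 47 with all endogenous reads in the denominator, and 63 and 49 with median-ratio size factors without BMCP 40 and BMCP 55. Within the runs of columns they were 117 and 58 in the first and 128 and 73 in the other, both with fewer cells. Under the remaining alternatives higher genes numbered 49 to 80 and lower genes 23 to 40. Leaving out each cell in turn gave 69 to 77 higher genes (the lowest without BMCP 47 or BMCP 66, the highest without BMCP 4 or BMCP 50) and 27 to 36 lower genes (the lowest without BMCP 14 or BMCP 92, the highest without BMCP 40). The median granule share was 10.8% without Cma1, 10.3% without Tpsb2 and 10.7% without Cpa3, by the construction of the sum. With median-ratio size factors the log2 ratio turned negative for Ctsd (rho 0.65), Gpr141b (rho 0.60), Tpsg1 (rho 0.45) and Fcer1a (rho 0.35). Of 39 named called genes, 24 kept their call in all 21 alternatives, and over the 819 values 774 kept it, 41 lost it in the same direction and 4 reversed. Part of this was fixed in advance. The looser filter, a read in 10% of cells, could undo no call. Other ends, pooling and the larger pseudocount left rho as it was, and the partial rho settings left the log2 ratio as it was. The settings of column runs, partial rho given reads outside genes, left-out cells and the last size factors were chosen after seeing the data. No paired analysis was possible because the numbers in the cell titles tie no BMCP to a mature mast cell and each gate is 1 pooled sample.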
